A study of Mus musculus with 12 samples.

Results

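The genes described here are those of insulin-like growth factor 1 (IGF1), its receptor Igf1r, the IGF2 and mannose 6-phosphate receptor Igf2r, and the binding proteins Igfbp2 to Igfbp7, as measured in brown fat of mice kept at 3 ambient temperatures. They are 9 of the 38924 genes of the count table, found by their symbols, and 8 of them passed the filter on low counts, which left 14870 genes for testing. Bulk RNA sequencing was done on the interscapular depot of wild-type C57BL/6J mice, 1 library per mouse, with 4 mice per temperature. All mice were 14 weeks old and had spent the last 4 weeks at 30 °C (thermoneutral for a mouse), 22 °C or 6 °C. Nothing on sex or housing density is stated in the labels. The 30 °C mice are called 1, 2, A and B, because 2 columns carry the letter of that group with numbers that match none of its titles.

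IGF1 is a secreted growth factor whose main source is the liver, while many tissues, fat among them, make their own for local use. Growth hormone drives its transcription through the kinase JAK2 and the transcription factors STAT5A and STAT5B. IGF1 itself acts through the IGF1 receptor, a tyrosine kinase closely related to the insulin receptor. IGFBP2 to IGFBP6 bind IGFs with high affinity and hold them away from the receptor or carry them to it, whereas IGFBP7 binds IGFs weakly and is abundant in vessel walls and matrix. IGF2R has no kinase: it takes IGF2 up for degradation and sorts enzymes tagged with mannose 6-phosphate to lysosomes. In brown fat, IGF1 is known as a growth and differentiation signal for preadipocytes.

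Each of the 9 genes is annotated as protein-coding in GRCm38. Igf1 lies on the plus strand at chr10:87858265-87937042, Igf1r on the plus strand at chr7:67952827-68233668 and Igf2r on the minus strand at chr17:12682406-12769664. Igfbp2 (chr1:72824503-72852474, plus strand) and Igfbp5 (chr1:72857932-72874884, minus strand) are neighbours. Igfbp3 (chr11:7206086-7213923, minus strand) and Igfbp4 (chr11:99041244-99054392, plus strand) share a chromosome, Igfbp6 is on the plus strand at chr15:102144362-102149511, and Igfbp7 is on the minus strand at chr5:77349240-77408041. Of Igfbp7's exon bases, 7.03% lie under the oppositely transcribed Polr2b, and with strandedness not given in the sources used here, reads of the overlap cannot be told apart; the other 8 genes have no such overlap.

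Igfbp3 and Igfbp4 are shown with the 250 bases upstream of their start because they moved in opposite directions between 22 °C and 6 °C. The sequences are from RefSeq (GRCm38.p6), 5′ to 3′ on the strand of the gene; capitals mark a match to 1 of 5 motifs searched on both strands. Among the 9 genes, these are the ones whose start matched a GENCODE transcript and whose upstream bases overlapped no annotated exon.
Igfbp3 (chr11:7213924-7214173, minus strand): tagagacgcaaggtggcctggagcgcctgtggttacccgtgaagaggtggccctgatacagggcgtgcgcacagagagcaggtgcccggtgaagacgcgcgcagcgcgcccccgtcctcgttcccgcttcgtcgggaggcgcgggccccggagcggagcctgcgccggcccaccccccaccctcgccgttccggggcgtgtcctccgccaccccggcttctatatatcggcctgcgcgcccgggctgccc
Igfbp4 (chr11:99040994-99041243, plus strand): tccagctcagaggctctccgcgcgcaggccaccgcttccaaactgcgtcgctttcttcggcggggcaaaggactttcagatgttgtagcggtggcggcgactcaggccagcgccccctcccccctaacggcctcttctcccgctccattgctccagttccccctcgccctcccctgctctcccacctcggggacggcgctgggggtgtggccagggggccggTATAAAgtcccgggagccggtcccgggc
The motifs were the TATA box TATAAA, the GC box GGGCGG, the CCAAT box, the cAMP response element core TGACG and the STAT5 element TTCNNNGAA. In the same 250-base window of 32536 RefSeq promoters they occurred in 12.3%, 33.0%, 33.8%, 17.9% and 7.0%, respectively. Igfbp4 held a TATA box 28 to 23 bases upstream of its start, and none of the letters searched occurred in Igfbp3's window. That window does hold the letters tatatat near its end, a similar spelling that was not searched. The search therefore does not show that the windows differ in a TATA-like element. Both windows are rich in G and C, 73.2% for Igfbp3 with 32 CpG and 69.2% for Igfbp4 with 22 CpG, beside medians of 52.4% and 6 CpG over all promoters. A match is a description of the letters, not a site.

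Total counts were 18290162 to 32513051 per library except 86438386 in 22 °C mouse 3, whose library code, in the second header line of the table, also lies apart from the others. Brown adipocyte markers were present in every library: their summed level was 3041 to 4622 CPM (read counts scaled to library size) at 30 °C, 5287 to 8005 at 22 °C and 13720 to 16230 at 6 °C. Much of that sum was Ucp1, with means of 1469, 3373 and 10440 CPM at 30, 22 and 6 °C. The sum is therefore not a measure of brown adipocyte content. Markers of adipocytes in general summed to 11550 to 12910, 17520 to 18080 and 15680 to 16640 CPM. Skeletal muscle markers ranged from 7.86 to 3737 CPM over the libraries and were uneven within each temperature. CPM values are scaled by the trimmed mean of M values (TMM) and are listed in the order 1, 2, A, B at 30 °C and 1 to 4 at 22 and 6 °C, and log2 fold changes come with their standard error (SE). A gene is said to have risen or fallen at a Benjamini-Hochberg adjusted p under 0.05 in the quasi-likelihood test of edgeR over all 14870 genes.

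At 6 °C against 30 °C, 6 of the 8 tested genes fell and 0 rose, where 56.8% of all genes tested were called, 31.5% lower and 25.3% higher. At 22 °C against 30 °C, 4 fell and 0 rose (44.6% of all genes called, 22.8% lower and 21.8% higher), and at 6 °C against 22 °C, 3 fell and 2 rose (34.2% called, 17.4% lower and 16.9% higher). The median log2 fold change of the 8 genes was -0.76, -0.41 and -0.33 in those comparisons, beside -0.11, -0.02 and -0.03 over all genes tested. DESeq2 and limma voom likewise called 0 of them higher in the first 2 comparisons, and edgeR had 0 higher at an unadjusted p under 0.05. Ranges of the 4 mice did not overlap for 5 of 8 genes at 6 °C against 30 °C (51.5% of all genes), for 2 of 8 at 22 °C against 30 °C (38.9%) and for 5 of 8 at 6 °C against 22 °C (34.9%). With the 3 temperatures tested at once, 7 of 8 were called (65.7% of all genes), Igf1r being the exception.

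**Figure D1:**
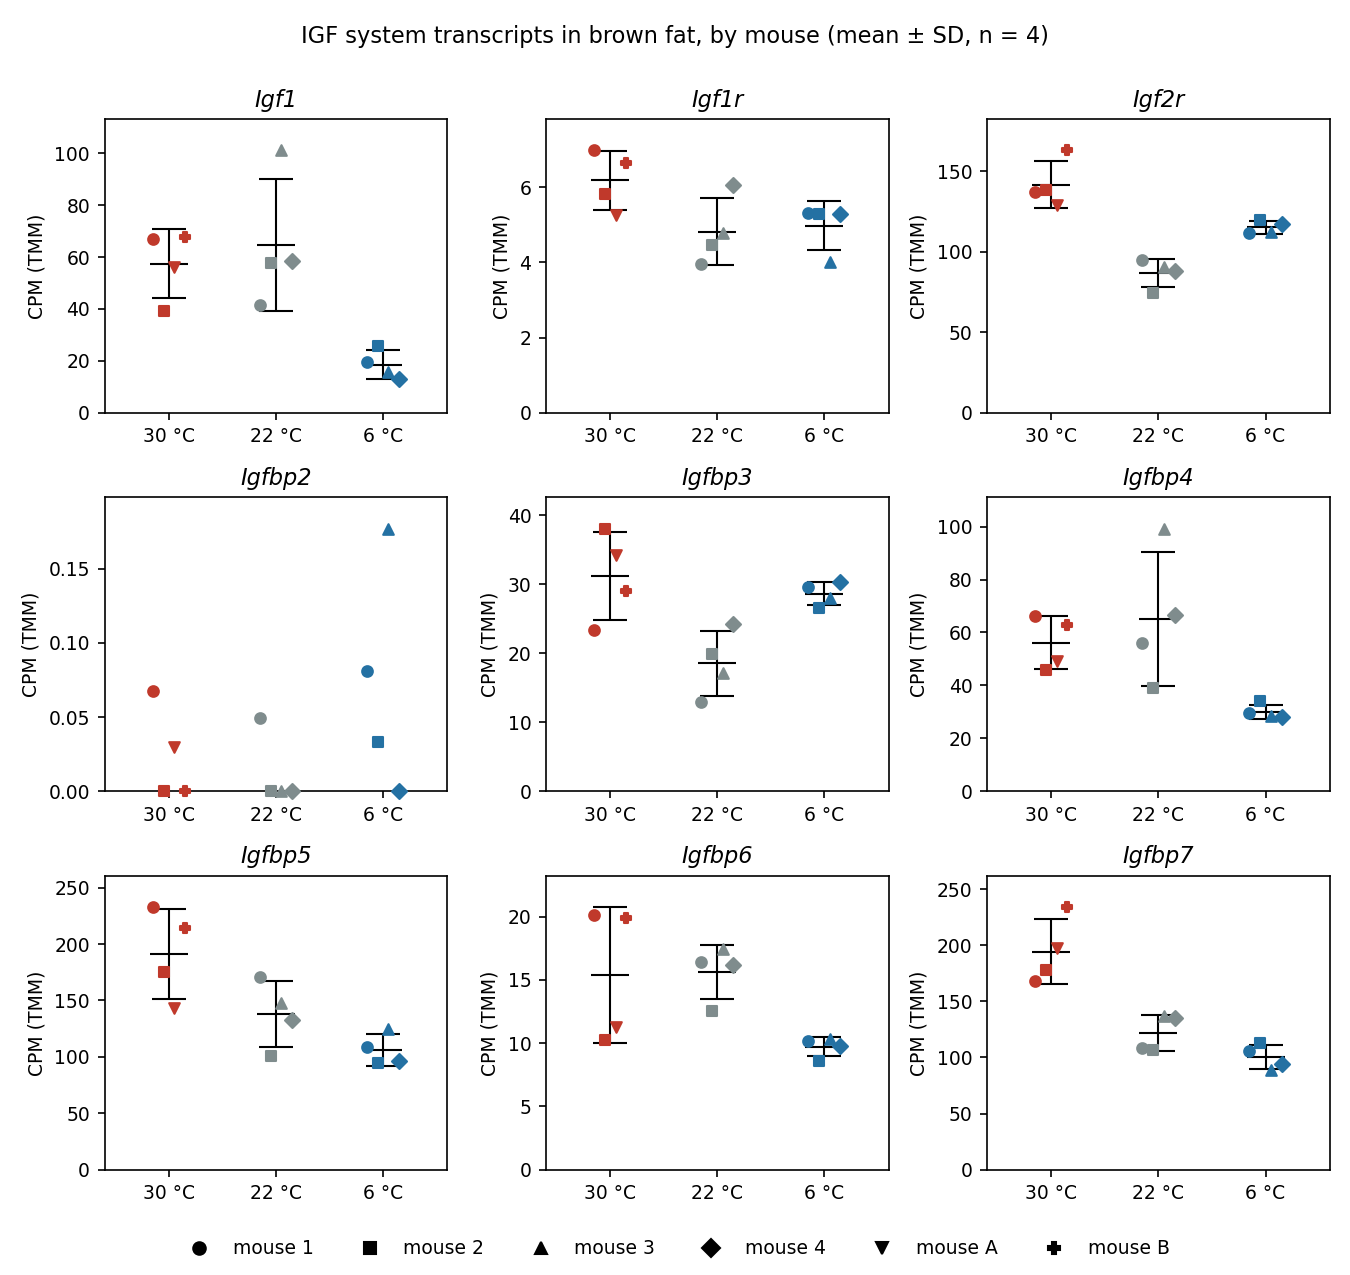
Normalised read counts (CPM, y axis from 0) of the 9 genes in each mouse at 30, 22 and 6 °C, with the mean and SD of 4 mice; symbols show the mouse, and Igfbp2 is drawn without mean because 6 of its libraries are at 0. Igf1 at 6 °C (13.1 to 25.7 CPM) lies below every other mouse, and Igf2r at 22 °C (74.1 to 94.7 CPM) lies below every other mouse.

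The ligand, Igf1, was lower in severe cold than at either milder temperature. Its level was 67.0, 39.2, 56.0 and 67.6 CPM at 30 °C, 41.7, 57.8, 101 and 58.4 CPM at 22 °C, and 19.6, 25.7, 15.5 and 13.1 CPM at 6 °C. The 6 °C mice were below all 8 others, while the 30 and 22 °C mice overlapped and 22 °C mouse 3 was highest. The mean was 57.5 ± 13.3 CPM at 30 °C, 64.7 ± 25.4 at 22 °C and 18.5 ± 5.53 at 6 °C (SD, n = 4). In the quasi-likelihood test of edgeR, adjusted by Benjamini-Hochberg, Igf1 fell 3.10-fold at 6 °C against 30 °C (log2 fold change -1.63, SE 0.30, adjusted p = 0.000862) and 3.50-fold against 22 °C (log2 fold change -1.81, SE 0.30, adjusted p = 0.00127). Between 22 and 30 °C the log2 fold change was 0.18 (SE 0.29, adjusted p = 0.657 in the same test), and it was -0.14 without 22 °C mouse 3.

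Receptor transcripts differed in level and in course. Igf1r, the signalling receptor, was at 6.98, 5.83, 5.27 and 6.65 CPM at 30 °C, 3.96, 4.47, 4.78 and 6.07 at 22 °C and 5.32, 5.28, 4.00 and 5.30 at 6 °C. The 3 groups overlapped, and the gene passed in no comparison. The quasi-likelihood test of edgeR gave log2 fold changes of -0.36 (SE 0.16, adjusted p = 0.0849) at 22 °C and -0.31 (SE 0.16, adjusted p = 0.107) at 6 °C, each against 30 °C. The first of these was called without 22 °C mouse 4 (-0.48, adjusted p = 0.0291). That mouse had the highest sum of skeletal muscle markers at 22 °C (2794 CPM, the others 692 to 826 CPM). With scaling by total counts, which moves the median of all genes by -0.32 at 6 °C and by -0.26 at 22 °C, both were called (-0.62, adjusted p = 0.0113, at 22 °C and -0.63, adjusted p = 0.00745, at 6 °C).

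Igf2r was lowest at 22 °C. Its level was 137, 138, 129 and 163 CPM at 30 °C, 94.7, 74.1, 90.5 and 87.9 CPM at 22 °C, and 112, 119.7, 112 and 117 CPM at 6 °C. No group overlapped another: 30 °C was highest, 6 °C intermediate and 22 °C lowest. By the quasi-likelihood test of edgeR it fell at 22 °C against 30 °C (log2 fold change -0.71, SE 0.09, adjusted p = 6.77e-05), rose from 22 to 6 °C (0.41, SE 0.09, adjusted p = 0.00385), and was below 30 °C at 6 °C (-0.30, SE 0.09, adjusted p = 0.0113). The last call was lost without mice A and B (-0.24, adjusted p = 0.0583). Per kilobase of exon, Igf2r transcripts were 26.1 to 50.5 times as abundant as Igf1r transcripts over the 12 libraries, with overlapping ranges at the 3 temperatures.

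The binding proteins are described by which of the 2 steps was called, which does not show that the steps differ; the test of that difference, given further on, was called for Igfbp3 and Igfbp4 and not for Igfbp5, Igfbp6 or Igfbp7. Igfbp4 and Igfbp6 resembled Igf1 in being called lower from 22 to 6 °C and not from 30 to 22 °C, which held for 10.3% of all genes tested. Igfbp3, like Igf2r, was called lower from 30 to 22 °C and higher from 22 to 6 °C, which held for 5.13% of all genes. Igfbp5 and Igfbp7 were called lower from 30 to 22 °C with no call from 22 to 6 °C, which held for 14.7% of all genes.

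Igfbp4 is a small binding protein that is cut by the protease PAPP-A and usually restrains IGF action. Its transcript was at 66.3, 45.8, 49.3 and 62.8 CPM at 30 °C, at 55.8, 38.8, 99.1 and 66.5 CPM at 22 °C and at 29.6, 33.9, 28.4 and 28.1 CPM at 6 °C. All 6 °C mice were below all others, and the 30 and 22 °C mice overlapped. It fell at 6 °C against 30 °C (log2 fold change -0.90, SE 0.24, adjusted p = 0.0071) and against 22 °C (-1.12, SE 0.24, adjusted p = 0.00441) in the quasi-likelihood test of edgeR. Its difference between 22 and 30 °C was 0.22 (SE 0.23, adjusted p = 0.477), or -0.07 without 22 °C mouse 3.

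Igfbp6 encodes a binding protein that prefers IGF2. Its transcript was at 20.1, 10.2, 11.3 and 19.9 CPM at 30 °C, at 16.4, 12.5, 17.5 and 16.1 CPM at 22 °C and at 10.1, 8.62, 10.3 and 9.76 CPM at 6 °C. The 6 °C mice were below all 22 °C mice, while 30 °C mouse 2 lay within the 6 °C range. In the quasi-likelihood test of edgeR it fell against 30 °C (log2 fold change -0.66, SE 0.21, adjusted p = 0.016) and against 22 °C (-0.69, SE 0.21, adjusted p = 0.0227). The first call was lost without 30 °C mouse 1 (-0.51, adjusted p = 0.0502) or mouse B (-0.52, adjusted p = 0.0544), and the second without 22 °C mouse 3 (-0.62, adjusted p = 0.0635) or 6 °C mouse 2 (-0.63, adjusted p = 0.0626).

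Igfbp3 encodes the main carrier of IGFs in blood. Its transcript was at 23.4, 38.0, 34.2 and 29.0 CPM at 30 °C, at 12.9, 19.9, 17.1 and 24.2 CPM at 22 °C and at 29.6, 26.6, 28.0 and 30.3 CPM at 6 °C. Every 6 °C mouse was above every 22 °C mouse and within the range of the 30 °C mice. By the quasi-likelihood test of edgeR it fell at 22 °C against 30 °C (log2 fold change -0.75, SE 0.18, adjusted p = 0.00432) and rose from 22 to 6 °C (0.63, SE 0.18, adjusted p = 0.017). At 6 °C against 30 °C its log2 fold change was -0.12 (SE 0.18, adjusted p = 0.566, same test), or -0.44 (adjusted p = 0.0415) with scaling by total counts.

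Igfbp5 is a conserved binding protein that sticks to the extracellular matrix. It was at 232, 175, 143 and 214 CPM at 30 °C, at 170.4, 101, 147 and 132 CPM at 22 °C and at 109, 94.4, 125 and 95.9 CPM at 6 °C. The 6 °C mice were below the 30 °C mice, and the 22 °C mice overlapped both. In the quasi-likelihood test of edgeR Igfbp5 fell at 6 °C against 30 °C (-0.85 on the log2 scale, SE 0.18, adjusted p = 0.0014). Its call at 22 °C against 30 °C (-0.47, SE 0.18, adjusted p = 0.0441) was lost without any 1 of 9 libraries (30 °C mice 1, 2 and B, 22 °C mice 2, 3 and 4, and 6 °C mice 1, 2 and 4), with values of -0.51 to -0.35 and adjusted p of 0.0524 to 0.121. From 22 to 6 °C the value was -0.38 (SE 0.18, adjusted p = 0.114, same test), called without 22 °C mouse 2 (-0.50, adjusted p = 0.0355).

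Igfbp7 was at 169, 178, 197 and 234 CPM at 30 °C, at 108, 107, 137 and 135 CPM at 22 °C and at 106, 113, 89.1 and 94.2 CPM at 6 °C. All 30 °C mice were above all others, and the 22 and 6 °C mice overlapped. It fell at 22 °C (log2 fold change -0.67, SE 0.12, adjusted p = 0.000684) and at 6 °C (-0.95, SE 0.12, adjusted p = 2.86e-05) against 30 °C in the quasi-likelihood test of edgeR, and the value between 22 and 6 °C was -0.28 (SE 0.12, adjusted p = 0.0919). Igfbp2, a binding protein that white fat is known to secrete, had 12 counts over the 12 libraries and 0 in 6 of them, where 3 counts correspond to 0.0353 to 0.179 CPM. It was not tested.

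**Figure D2:**
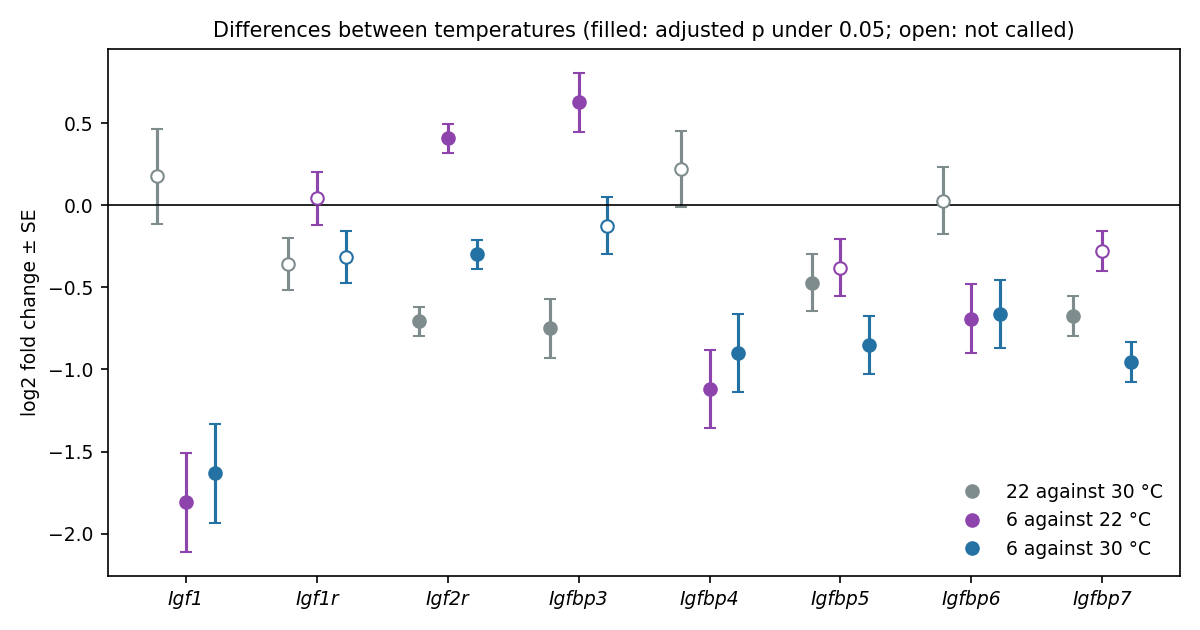
Log2 fold changes (y axis) with their SE for the 8 tested genes at 22 °C against 30 °C, 6 °C against 22 °C and 6 °C against 30 °C; filled points have an adjusted p under 0.05. Igf1 has the lowest points (-1.81 and -1.63), and Igf2r and Igfbp3 have filled points on opposite sides of 0 for the steps from 30 to 22 °C and from 22 to 6 °C.

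The step from 22 to 6 °C differed from the step from 30 to 22 °C for 4 of 8 genes when the difference itself was tested (29.3% of all genes called, 15.0% below 0 and 14.3% above). The second step spans more degrees than the first, and the test compares whole steps, not changes per degree. In the quasi-likelihood test of edgeR the difference of the log2 fold changes, second step minus first, was -1.99 for Igf1 (SE 0.49, adjusted p = 0.0118), -1.34 for Igfbp4 (SE 0.40, adjusted p = 0.0259), 1.11 for Igf2r (SE 0.16, adjusted p = 0.000524) and 1.38 for Igfbp3 (SE 0.32, adjusted p = 0.00676). The call for Igfbp4 was lost without 22 °C mouse 3 (-0.76, adjusted p = 0.0914), without 22 °C mouse 4 (-1.33, adjusted p = 0.0609) and without mice A and B (-1.33, adjusted p = 0.0801). It was not called for Igfbp6 (-0.72, adjusted p = 0.146), Igf1r (0.40, adjusted p = 0.305), Igfbp7 (0.40, adjusted p = 0.178) or Igfbp5 (0.09, adjusted p = 0.854) in the same test.

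Levels of different genes were compared per kilobase of GENCODE exon. The length is that of all annotated exons of a gene merged, not of the transcripts expressed, so comparisons between genes are approximate. On that scale (CPM per kb) Igfbp7 was the most abundant at 161 on average at 30 °C, 101 at 22 °C and 83.1 at 6 °C, followed by Igfbp5 at 31.8, 22.9 and 17.6. Igf2r, Igfbp6, Igfbp4 and Igfbp3 had means of 5.92 to 15.2 over the 3 temperatures, Igf1 had 5.80, 6.54 and 1.87, and Igf1r 0.368, 0.287 and 0.296. The binding proteins summed to 229 ± 27.9 CPM per kb at 30 °C, 158 ± 22.3 at 22 °C and 125 ± 7.53 at 6 °C (SD, n = 4). Igfbp7 accounted for 70.1% ± 4.53, 63.7% ± 3.20 and 66.1% ± 3.44 of that sum.

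Within the sum, Igfbp3 held a larger share at 6 °C, 7.32% ± 0.732 (SD, n = 4; 6.39 to 8.16%), than in any mouse at 30 °C (3.42 to 5.84%) or 22 °C (2.76 to 4.82%). Igfbp4 took 5.55% ± 0.883, 9.08% ± 2.38 and 5.41% ± 0.271 at 30, 22 and 6 °C, and Igfbp5 took 13.9%, 14.5% and 14.1%. The shares were not tested. Per Igf1 transcript, on the same scale, there were 32.3, 52.5, 38.8 and 39.6 binding protein transcripts at 30 °C, 35.6, 22.5, 17.8 and 29.0 at 22 °C, and 65.9, 51.2, 76.2 and 90.0 at 6 °C. The 6 °C mice were above all 22 °C mice, and 30 °C mouse 2 lay within the 6 °C range. Most of the binding protein transcripts counted here are those of Igfbp7, whose protein binds IGFs weakly.

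**Figure D3:**
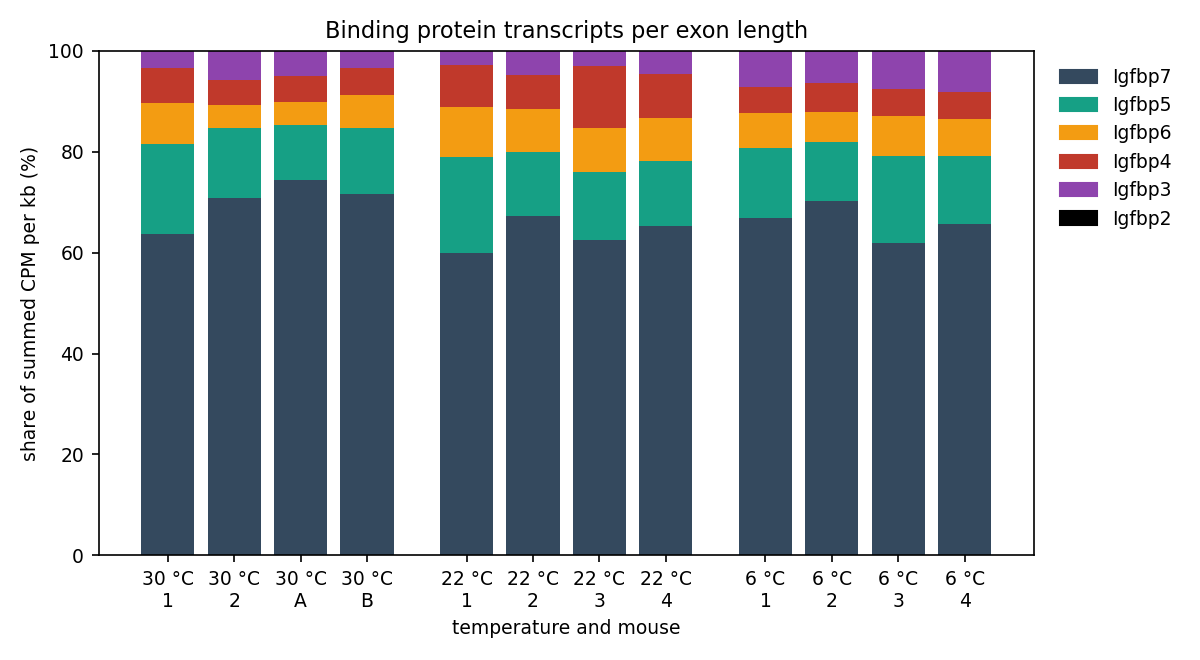
Share of each binding protein (%, y axis) in the summed CPM per kb of Igfbp2 to Igfbp7, 1 bar per mouse, ordered by temperature. Igfbp7 fills 59.9 to 74.4% of every bar, and the Igfbp3 band is widest in the 6 °C mice (6.39 to 8.16%).

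Other components of the system were taken from 6 lists of 79 genes in all. In the list of the IGF and growth hormone axis, all 9 genes were tested, with 2 higher and 3 lower at 6 °C against 30 °C (median -0.45, all genes -0.11), 2 higher and 1 lower at 22 °C against 30 °C, and 1 higher and 4 lower at 6 °C against 22 °C. With scaling by total counts the first of these counts was 1 higher and 6 lower, and without mice A and B the second was 1 higher and 0 lower. Of all genes tested, 25.3%, 21.8% and 16.9% were called higher in these comparisons, and 31.5%, 22.8% and 17.4% lower. The called share of this list at 6 °C against 30 °C was near that of all genes (56.8%). Cish is a feedback inhibitor that growth hormone induces through STAT5. It was at 160, 109, 113 and 95.7 CPM at 30 °C, at 55.0, 117, 211 and 48.3 CPM at 22 °C, and at 36.1, 10.7, 8.14 and 16.7 CPM at 6 °C. The 6 °C mice were below all others. It fell against 30 °C (log2 fold change -2.74, SE 0.59, adjusted p = 0.00301) and against 22 °C (-2.60, SE 0.59, adjusted p = 0.00798) in the quasi-likelihood test of edgeR.

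Ghr, the growth hormone receptor, fell from a mean of 369 CPM at 30 °C and 391 CPM at 22 °C to 269 CPM at 6 °C, with log2 fold changes of -0.45 (adjusted p = 0.0101) and -0.54 (adjusted p = 0.0076) in the quasi-likelihood test of edgeR. Stat5a, a transcription factor of the axis, rose instead, from 43.2 CPM at 30 °C to 71.1 at 22 °C and 69.1 at 6 °C (log2 fold change 0.72, adjusted p = 0.00015, and 0.68, adjusted p = 0.000104, same test, each against 30 °C). Stat5b rose at 6 °C by 0.34 (adjusted p = 0.0025, same test), which was 0.02 and not called (adjusted p = 0.83) with scaling by total counts. Socs2, another feedback inhibitor, had means of 8.57, 20.5 and 5.12 CPM at 30, 22 and 6 °C and fell from 22 to 6 °C (-2.0 on the log2 scale, SE 0.46, adjusted p = 0.0071 by edgeR). Its call at 22 °C against 30 °C (1.26, SE 0.44, adjusted p = 0.0377 in that test) was lost without mice A and B (1.08, adjusted p = 0.233), as it was without 30 °C mice 2, A or B, 22 °C mice 2 or 3 or 6 °C mouse 3 (adjusted p of 0.0503 to 0.108). Jak2, the kinase of the receptor, fell at 6 °C against 30 °C by 0.23 (adjusted p = 0.0248, same test), a call lost in 10 of 24 alternatives. Among them were DESeq2 (-0.18, adjusted p = 0.0827), edgeR with RLE scaling (-0.18, adjusted p = 0.0742) and edgeR without mice A and B (-0.20, adjusted p = 0.106). The call was also lost without 30 °C mouse B, 6 °C mouse 2 or 6 °C mouse 4 (adjusted p of 0.0746 to 0.0794). Socs1 (-0.99, adjusted p = 0.0503) and Socs3 (-0.56, adjusted p = 0.0881), inhibitors of cytokine signalling, were not called there. Socs1 was called lower in 8 of the 24 alternatives, among them DESeq2 (-0.94, adjusted p = 0.0454), limma voom (-1.07, adjusted p = 0.0319) and the fit without 6 °C mouse 1 (-1.5, adjusted p = 0.00442). Socs3 was called lower with total counts (-0.87, adjusted p = 0.0172), without 30 °C mouse 2 (-0.74, adjusted p = 0.0214) and without 6 °C mouse 1 (-0.75, adjusted p = 0.0349).

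Igf2, the second ligand, was low, with means of 9.39, 11.2 and 8.92 CPM at 30, 22 and 6 °C, and was not called at 6 °C against 30 °C (-0.08 on the log2 scale, adjusted p = 0.572 by edgeR). With scaling by total counts that value was -0.39 (adjusted p = 0.00664). From 22 to 6 °C Igf2 fell (-0.32, adjusted p = 0.0402 by edgeR), a call lost in 14 of 24 alternatives. Igfals, the subunit that stabilises IGF and IGFBP3 in blood, had means of 4.02, 12.6 and 4.96 CPM and is named after its values were seen. It rose at 22 °C against 30 °C (1.66, SE 0.38, adjusted p = 0.00438, same test), a call lost without mice A and B (1.43, adjusted p = 0.0633). It fell from 22 to 6 °C (-1.35, SE 0.38, adjusted p = 0.0183), a call lost without 22 °C mouse 3 (-1.06, adjusted p = 0.0527).

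**Figure D4:**
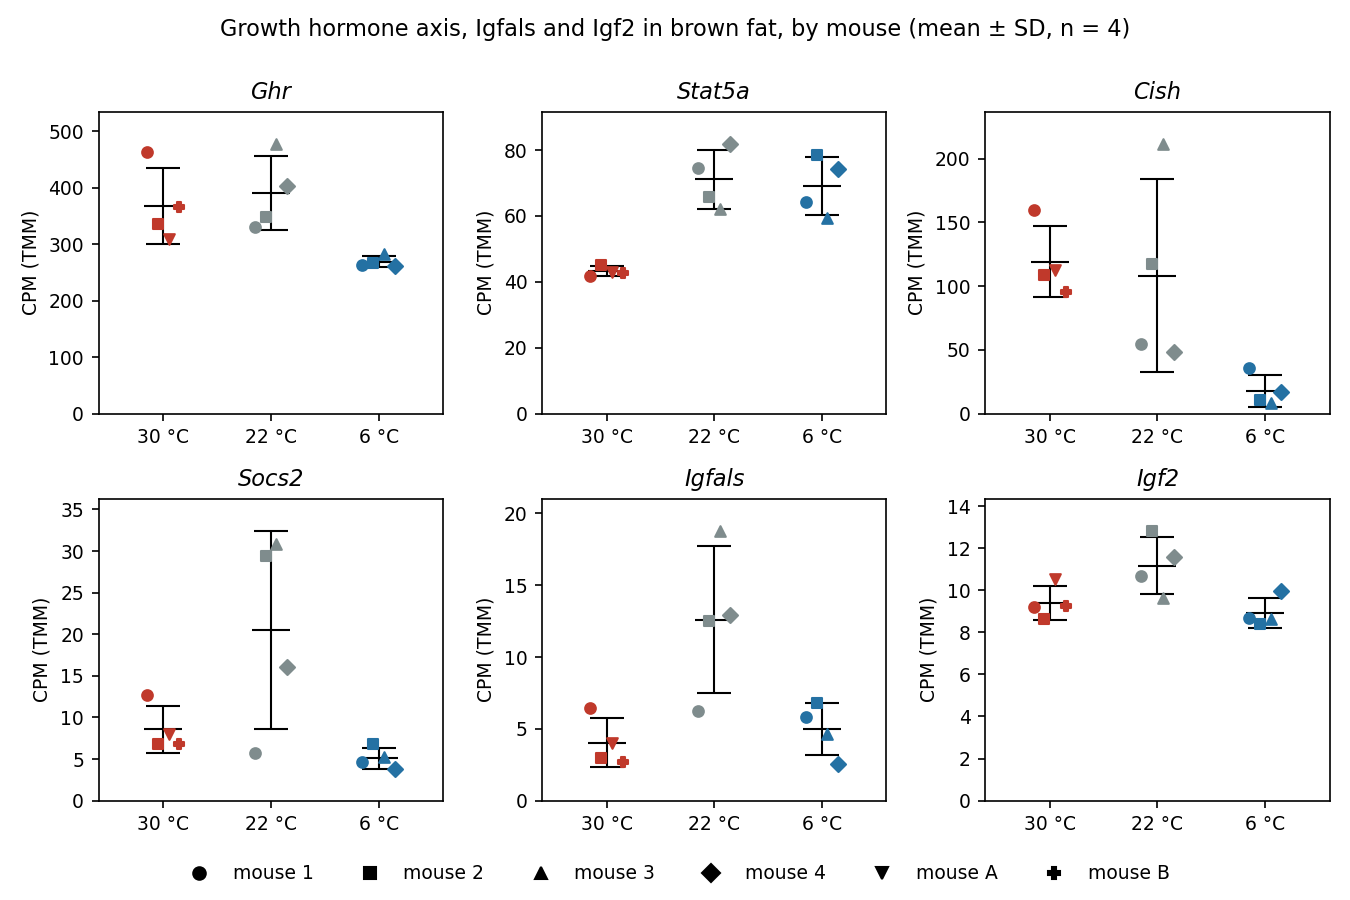
Normalised read counts (CPM, y axes from 0) of Ghr, Stat5a, Cish, Socs2, Igfals and Igf2 in each mouse at 30, 22 and 6 °C, with the mean and SD of 4 mice. Cish at 6 °C (8.14 to 36.1 CPM) lies below every other mouse, and Stat5a at 30 °C (41.7 to 45.3 CPM) lies below every other mouse.

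The other components moved in both directions at 6 °C against 30 °C, where 25.3% of all genes tested were called higher and 31.5% lower. Of 12 further IGF-binding and related proteins 8 were tested, of which 3 fell and 5 were not called (median -0.49, all genes -0.11), or 6 fell with scaling by total counts. Those that fell with TMM scaling were Htra1, a secreted protease with an IGF-binding domain (-0.89 on the log2 scale, adjusted p = 6.29e-05 by edgeR), Ccn3, a matricellular protein (-1.15, adjusted p = 0.000354), and Kazald1 (-0.39, adjusted p = 0.00372, or -0.32 and 0.0503 without mice A and B). Of 14 IGFBP proteases and their inhibitors 11 were tested, 2 rose and 5 fell (median -0.18), or 2 rose and 3 fell without mice A and B. Adam12, a metalloprotease that cleaves IGFBP3 and IGFBP5, rose by 1.85 (adjusted p = 2.65e-06, same test), from 24.2 to 86.9 CPM. The lysosomal protease Ctsd rose by 0.85 (adjusted p = 3.39e-05), and Plau, urokinase, fell by 1.07 (adjusted p = 0.00345), on the log2 scale by edgeR. Without mice A and B the value for Plau was -0.66 (adjusted p = 0.0479). Of 10 partner receptors and their ligands 9 were tested, 1 rose and 5 fell (median -0.25), or 1 rose and 3 fell without mice A and B. With scaling by total counts, 2 proteases or inhibitors rose and 6 fell, and 1 partner receptor rose and 6 fell. From 22 to 6 °C, 2 rose and 4 fell among the binding and related proteins, 5 rose and 1 fell among the proteases and inhibitors (5 and 2 without mice A and B), and 3 rose and 2 fell among the partner receptors. From 30 to 22 °C the counts were 1 and 1 (0 and 2 without mice A and B), 2 and 4 (2 and 2), and 2 and 4 (2 and 3). With total counts they were 1 and 4, 1 and 4, and 1 and 6 from 30 to 22 °C, and 0 and 4, 5 and 1, and 1 and 2 from 22 to 6 °C. Of all genes tested with TMM scaling, 21.8% were called higher and 22.8% lower from 30 to 22 °C. From 22 to 6 °C those shares were 16.9% and 17.4%.

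Insr, the insulin receptor, was the partner receptor that rose. Its level was 104, 99.8, 87.5 and 82.4 CPM at 30 °C, 150.1, 133, 141 and 149.8 CPM at 22 °C and 177, 174, 199.7 and 183 CPM at 6 °C, so that no group overlapped another. In the quasi-likelihood test of edgeR its log2 fold change was 0.97 at 6 °C (SE 0.09, adjusted p = 1.37e-06) and 0.62 at 22 °C (SE 0.08, adjusted p = 0.000121), each against 30 °C, whereas Igf1r was not called. Cd93, an endothelial receptor that binds IGFBP7, fell by 1.05 (adjusted p = 3.88e-05), and Vtn, vitronectin, a matrix partner of IGFBP5, fell by 0.74 (adjusted p = 5.23e-05), on the log2 scale in the same test at 6 °C against 30 °C.

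Downstream of the receptor, all 22 genes of IGF1 receptor signalling were tested, and 7 rose and 5 fell at 6 °C against 30 °C (median 0.06), or 4 rose and 10 fell with scaling by total counts, beside 25.3% higher and 31.5% lower of all genes tested. The called share of this list is near that of all genes (56.8%). The adaptor Sh2b2 rose by 1.34 (adjusted p = 5.61e-07), the phosphatase Ptpn11 by 1.08 (adjusted p = 6.19e-07) and the exchange factor Sos1 by 0.61 (adjusted p = 4.86e-06) on the log2 scale in the quasi-likelihood test of edgeR. Of 12 genes of mannose 6-phosphate sorting, the lysosomal route that IGF2R serves, 8 rose and 1 fell (median 0.32), or 4 rose and 2 fell with scaling by total counts, against the same 25.3% higher and 31.5% lower. The retromer subunit Vps35 rose by 0.70 (adjusted p = 2.85e-06), and Gnptab and Gnptg, subunits of the enzyme that makes the tag, rose by 0.88 (adjusted p = 6.1e-06) and 0.56 (adjusted p = 2.34e-05), in the same test. From 30 to 22 °C, 5 signalling genes rose and 4 fell (1 and 6 with total counts, 2 and 2 without mice A and B). In that step 6 sorting genes rose and 0 fell (1 and 3 with total counts, 4 and 0 without mice A and B). From 22 to 6 °C, 6 signalling genes rose and 5 fell (6 and 6 with total counts, 7 and 6 without mice A and B). There 4 sorting genes rose and 0 fell (3 and 0 with total counts, 6 and 0 without mice A and B). Of all genes tested, 21.8% were called higher and 22.8% lower from 30 to 22 °C. From 22 to 6 °C those shares were 16.9% and 17.4%.

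For each gene, those with the most similar course over the 12 libraries were found by the root mean square distance of log2 CPM after centring. The search covered 9889 tested genes that averaged 5 CPM or more, without genes under clone or predicted names and without mitochondrially encoded genes. Nearest to Igf1 were Cd14 (0.18), a receptor of innate immunity, Steap4 (0.28), a metalloreductase, and Cfd (0.29), the adipokine adipsin, where the median distance was 0.93. Cd14 is 1 of the 11 macrophage markers given below and differed from the rest of them. It was not called at 22 °C against 30 °C (-0.03 on the log2 scale, adjusted p = 0.933 by edgeR), where the other 10 fell. Nearest to Igf2r were Sipa1l2 (0.09), the membrane protease Adam10 (0.10) and Cemip2 (0.11, median 0.42). Nearest to Igfbp7 were Mrc2 (0.09), a collagen receptor, Fam114a1 (0.09) and the collagen-modifying enzyme P3h3 (0.11, median 0.50). Tbc1d16 (0.18) and Celsr2 (0.22) were among the genes near Igfbp4. Igfbp3 was nearest to Rapgef5, Hspa12b and Tpm4 (0.18 to 0.19), Igfbp5 to Fndc1, Iqce and Ehbp1 (0.09 to 0.16), Igfbp6 to Nsun6, Ltbp1 and Uvssa (0.20 to 0.22), and Igf1r to Zbtb1, Ube2d1 and Slc38a9 (0.13 to 0.15). Distances are descriptions, with no test.

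Markers of the cells other than adipocytes moved with temperature too. In bulk tissue, fewer cells of a type and less RNA per cell cannot be told apart. Fibroblast and preadipocyte markers summed to 4839 to 8283 CPM at 30 °C, 2402 to 3846 at 22 °C and 1520 to 1859 at 6 °C, and 11 of 11 fell at 6 °C and 10 of 11 at 22 °C against 30 °C, where 31.5% and 22.8% of all genes tested were called lower. Endothelial markers summed to 1569 to 1873 CPM, 1028 to 1194 and 1142 to 1213, with 7 and 8 of 10 fallen at 6 and 22 °C against 30 °C. Macrophage markers summed to 302 to 816 CPM, 109 to 150.3 and 149.7 to 257 (9 and 10 of 11 fallen), split at 30 °C into 701 and 816 CPM in A and B and 321 and 302 CPM in mice 1 and 2. Without A and B, 7 macrophage markers fell and 1 rose at 6 °C, with a median log2 fold change of -0.93 instead of -1.68, and 10 fell at 22 °C. In that fit 10 and 9 fibroblast and preadipocyte markers and 6 and 8 endothelial markers fell at 6 and 22 °C. No marker of these 3 lists was at 0 in all libraries. Pericyte and smooth muscle markers summed to 965.7 to 1217 CPM, 762 to 866 and 779.8 to 833, with 7 of 10 fallen and 1 risen at 6 °C and 5 fallen and 1 risen at 22 °C. Of 6 Schwann cell markers 2 fell and 1 rose at 6 °C against 30 °C (sums of 61.3 to 106 CPM over all libraries), and of 6 mesothelial markers, which summed to 3.56 to 7.63 CPM, 1 was tested and was not called at 6 °C. The part of other cell types in any of the changes was not tested.

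**Figure D5:**
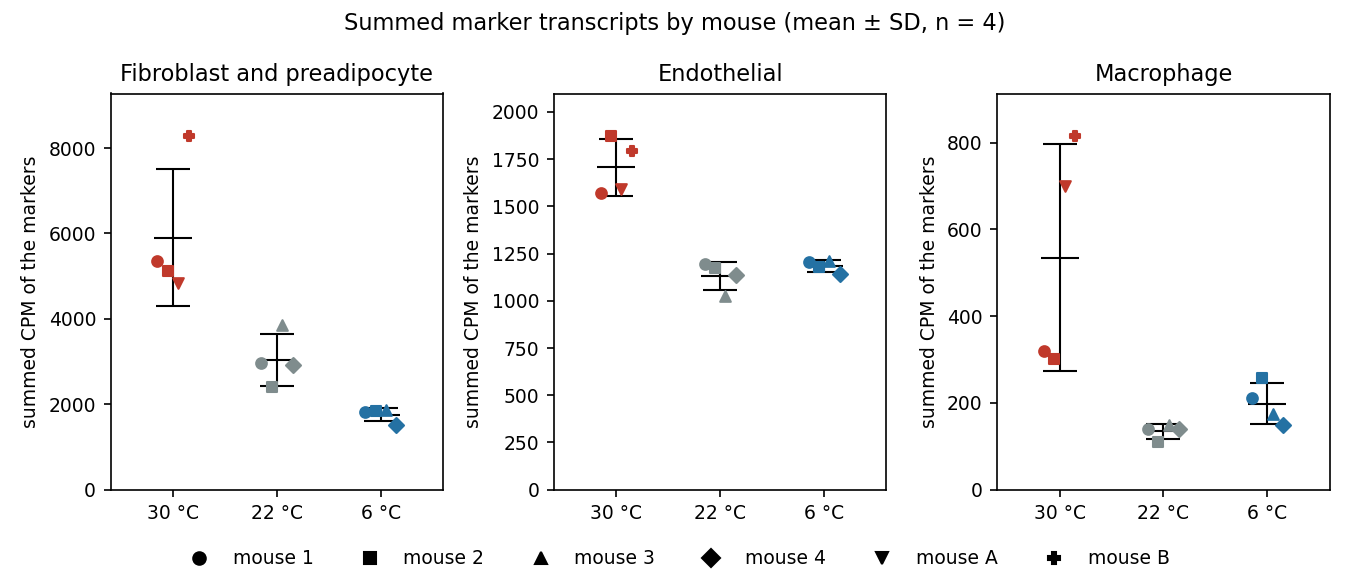
Summed CPM (y axes from 0) of the markers of fibroblasts and preadipocytes, endothelial cells and macrophages in each mouse at 30, 22 and 6 °C, with the mean and SD of 4 mice. All 30 °C mice lie above all others in each panel, and fibroblast markers at 6 °C (1520 to 1859 CPM) lie below those at 22 °C (2402 to 3846 CPM).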

How the data were processed

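Interscapular brown fat of 12 mice was sequenced, and the authors deposited their raw counts per gene as a single table. The submitters' processing notes name STAR 2.4.2a, FastQC 0.10.1, edgeR 3.14.0 and the build GRCm38/mm10 without their roles, with counter, annotation release and strandedness not given in the sources used here. Of the 12 columns, 10 matched a titled mouse and 2 only the letter of the 30 °C group (mice A and B). GENCODE M21 gave names, positions and exon lengths for 96.6% of identifiers.

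Testing used edgeR 4.0.16 under R 4.3.3: filterByExpr, TMM scaling, and glmQLFit with robust estimation of 1 factor of 3 temperatures over all 12 libraries, with the spread estimated jointly. Each contrast had a two-sided test by the quasi-likelihood F test, with Benjamini-Hochberg adjustment over 14870 genes. SE is the absolute log2 fold change over the root of F. The fit was also run on simulated data with the same spread for every gene and few, balanced changes, unlike these data. Its outcome is not reported here. P-values speak for the spread between these mice only. The number of mice and the low counts of Igf1r (75 to 405 per library) limit the precision. Gene names in the text are the 9 genes studied, the growth hormone axis, the 3 smallest p-values at 6 °C against 30 °C of each other list, and the 3 nearest genes by distance (log2 CPM with a prior count of 2), except that 1 gene near Igfbp4 is not reported here. Igfals, Pappa, Stc1 and Stc2 were added after their values were seen. The genes studied and the lists were chosen with earlier results of these data known. The alternatives tried were total-count, upper-quartile and RLE scaling, no filter or 1 CPM in 4 libraries, DESeq2 1.42.0, limma voom (3.58.1), no robust estimation, adjusted p under 0.01, the replicate block, only the 8 libraries compared, leaving out mice A and B, and leaving out each library.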

Additional observations from a re-analysis of the deposited data

Results flagged for a closer look

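Igf1r in 6 °C mouse 3 was at 4.00 CPM, apart from the other 3 mice at 5.28 to 5.32 CPM: the gap to the nearest was 0.972 of the range of the group, above Dixon's 95% critical value for 4 samples. It was the only such value among 24 groups checked (8 genes at 3 temperatures), and chance alone flags about 1 in 20 groups. The same mouse had the lowest sum of skeletal muscle markers, 7.86 CPM, where the others at 6 °C had 238 to 1411 CPM. At each temperature the mouse with the highest muscle sum (30 °C mouse 1, 22 °C mouse 4 and 6 °C mouse 1) also had the highest Igf1r. A part of muscle in the Igf1r values was not tested.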

How the results depend on the processing

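Of 32 fold changes of the 8 tested genes, 14 kept their direction and their side of the threshold under every alternative, and no called fold change of these genes changed direction. Scaling by total counts ended the calls of 2 genes that had risen at 22 °C against 30 °C and turned their sign, Gnptg (-0.05, adjusted p = 0.608) and Sos1 (-0.03, adjusted p = 0.762). There it also turned the sign of Igf1 (-0.09), Igfbp4 (-0.04) and Igfbp6 (-0.24), none called in either fit. Of the genes lower in the difference of the steps (2, Igf1 and Igfbp4), 1 was called with total counts, without the low-count filter and without 30 °C mice A and B, 1 to 2 when single libraries were left out, and 0 at an adjusted p under 0.01. That threshold also left 1 gene higher at 6 °C against 22 °C, and 2803 of 5091 genes for that comparison and 2236 of 4353 for the difference of the steps. Without division by exon length, Igfbp7 made up 39.99%, 34.24% and 36.57% of binding protein reads at 30, 22 and 6 °C.

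Mouse numbers showed no clear pairing of the libraries: over 8 pairs of the same number the correlation of deviations was -0.152 to 0.23, and 3 pairs were over 0.1. Pairs of different numbers ranged from -0.365 to 0.379. The numbers are those of the sample descriptions, and pairing by the numbers in the titles was not examined. With the number as a replicate block on the 10 numbered libraries, 3 of the 8 genes were lower at 6 °C against 30 °C instead of 6, since Igf1 (-1.51, adjusted p = 0.0561), Igf2r (-0.26, adjusted p = 0.106) and Igfbp4 (-1.0, adjusted p = 0.0526) were not called. With it 0 instead of 2 were lower in the difference of the steps, and 3245 of 6634 and 2468 of 4353 genes were called at 22 °C against 30 °C and for the difference of the steps. These fits hold fewer libraries. Igfbp2 had too few counts to be tested at this depth.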

Other observations

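Among the proteases and inhibitors that set the level of free IGF, 3 further genes are given as values, chosen after their values were seen. Pappa, the protease that cleaves IGFBP4, was at 17.6, 5.75, 18.3 and 5.04 CPM in 30 °C mice 1, 2, A and B, at 189.7, 152, 6.41 and 88.9 CPM in 22 °C mice 1 to 4, and at 84.0, 4.04, 9.63 and 26.1 CPM in 6 °C mice 1 to 4. The mice of 1 temperature differed by over an order of magnitude at 22 and 6 °C, and 22 °C mouse 3, which was highest of its group in Igf1, Igfbp4, Cish and Igfals, was lowest in Pappa. Its log2 fold change at 22 °C against 30 °C was 3.22 (SE 1.14, adjusted p = 0.0433 in edgeR's quasi-likelihood test), a call that was lost with A and B left out (3.22, adjusted p = 0.204) and when any 1 of 8 single libraries was left out.

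Stc1 and Stc2, stanniocalcins that inhibit PAPP-A, had means of 6.10 and 1.79 CPM at 30 °C, 0.787 and 1.25 CPM at 22 °C, and 2.78 and 0.402 CPM at 6 °C. Stc1 fell at 22 °C against 30 °C (log2 fold change -2.81, SE 0.47, adjusted p = 0.000551) and Stc2 fell at 6 °C against 30 °C (-2.23, SE 0.54, adjusted p = 0.00374), both in edgeR's quasi-likelihood test. From 22 to 6 °C Stc1 rose (1.68, adjusted p = 0.0166, same test) and Stc2 fell (-1.81, adjusted p = 0.0224). Those calls were lost in 1 and 4 of 24 alternatives. At 6 °C against 30 °C Stc1 fell (-1.13, adjusted p = 0.0402, same test), a call lost in 12 of 24. Some counts were low: 10, 8, 121 and 17 for Stc1 in 22 °C mice 1 to 4, and 10, 6, 6 and 15 for Stc2 in 6 °C mice 1 to 4.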
